A study of Homo sapiens with 12 samples.

Results

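The 10 proteins examined here are ones that glandular epithelium secretes or carries on its surface and that are used as markers of the classical subtype of pancreatic ductal adenocarcinoma (PDAC), and their genes were followed by name through the deposited values. The markers were the trefoil factors TFF1, TFF2 and TFF3, the anterior gradient proteins AGR2 and AGR3, lysozyme (LYZ), the lectin-like REG4 and the carcinoembryonic antigen family members CEACAM1, CEACAM5 and CEACAM6. They were looked up by symbol, the set having been drawn up with earlier results of these data known, and all 10 were found among the 48114 genes listed. RNA was sequenced from polyA-selected libraries of 2 human PDAC cell lines, with 3 libraries per group and 12 in all. PANC-1, the line taken as basal-like in the study, received a control siRNA (siCtrl), a pool of siRNAs against the splicing factor QKI (siQKI, 40 nM) or a pool against the splicing factor RBFOX2 (siRBFOX2, 40 nM). HPAF-II, the line taken as classical, received siCtrl, and every group was labelled as collected at 48 h. Each line stands for its subtype alone, and the labels do not say whether replicates were separate cultures, so the spread between libraries may be technical.

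Trefoil factors are small, disulfide-rich peptides that goblet and gastric mucous cells release together with mucins, and they protect and help to repair the mucosal surface. AGR2 and AGR3 belong to the protein disulfide isomerases, the enzymes of the endoplasmic reticulum that form and rearrange disulfide bonds in newly made secretory proteins, and AGR2 is needed for mucin production in the intestine. CEACAM proteins are immunoglobulin-like adhesion molecules: CEACAM1 spans the membrane and signals through cytoplasmic motifs, whereas CEACAM5 and CEACAM6 are held by a lipid anchor. LYZ cleaves bacterial cell walls and is also a product of monocytes, macrophages and Paneth cells.

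The start-site regions are shown for AGR2, the marker that moved with QKI silencing, and for the CEACAM genes, whose levels in HPAF-II lay far apart. Each runs 5′ to 3′ on the strand of the gene, from 250 bases before to 50 bases after the RefSeq start site (GRCh38.p14), and capitals mark a match to AGATAA, the letters of a GATA motif, in AGR2 and a match to TATAAA in CEACAM6, which lies far upstream of where a TATA box is usually placed.
AGR2, chr7:16804950-16805249, minus strand: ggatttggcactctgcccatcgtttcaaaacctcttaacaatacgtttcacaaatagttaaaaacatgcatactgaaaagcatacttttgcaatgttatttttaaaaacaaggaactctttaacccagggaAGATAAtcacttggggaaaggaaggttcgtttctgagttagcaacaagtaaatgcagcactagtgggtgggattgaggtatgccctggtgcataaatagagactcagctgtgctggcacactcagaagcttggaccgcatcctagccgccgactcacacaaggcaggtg
CEACAM6, chr19:41755280-41755579, plus strand: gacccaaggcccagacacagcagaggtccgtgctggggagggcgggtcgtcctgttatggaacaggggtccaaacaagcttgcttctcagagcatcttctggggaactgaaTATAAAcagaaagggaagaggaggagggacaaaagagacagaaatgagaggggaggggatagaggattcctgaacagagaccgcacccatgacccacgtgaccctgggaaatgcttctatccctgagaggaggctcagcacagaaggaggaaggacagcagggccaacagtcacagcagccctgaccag
CEACAM5, chr19:41708376-41708675, plus strand: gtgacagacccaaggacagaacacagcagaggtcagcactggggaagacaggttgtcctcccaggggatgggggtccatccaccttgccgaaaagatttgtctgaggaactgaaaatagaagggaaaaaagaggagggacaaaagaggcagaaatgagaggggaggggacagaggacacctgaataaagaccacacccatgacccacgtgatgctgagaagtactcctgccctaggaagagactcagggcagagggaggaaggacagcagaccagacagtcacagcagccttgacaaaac
CEACAM1, chr19:42528432-42528731, minus strand: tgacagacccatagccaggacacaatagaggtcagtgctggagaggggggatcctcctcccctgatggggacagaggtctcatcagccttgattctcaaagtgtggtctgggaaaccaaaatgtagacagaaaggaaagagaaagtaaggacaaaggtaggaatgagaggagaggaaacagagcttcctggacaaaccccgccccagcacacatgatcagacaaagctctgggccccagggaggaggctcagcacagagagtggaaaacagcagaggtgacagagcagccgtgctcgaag

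The regions of CEACAM5 and CEACAM6, whose genes lie 25111 bases apart, shared 230 of 300 bases in a global alignment (76.7%). CEACAM1 shared 71.3% of its 300 bases with CEACAM6 and 68.7% with CEACAM5, against 51.7% between AGR2 and AGR3 and 48.7% to 53.7% for the pairs that took 1 gene from each of 2 families. A promoter entry was found for 6 of the 10 markers, REG4 and AGR3 being the other two, and LYZ, TFF1, TFF2 and TFF3 were not matched. Both strands were searched for 5 short motifs. AGATAA was found in 2 of the 6 regions (AGR2 at position -119 from the start site, REG4 at -122) and in 10.3% of all 35116 promoters of this length. TATAAA was found in 3 of the 6 (AGR3 and REG4 at -31, CEACAM6 at -139) and in 11.5% of all promoters. The FOXA motif TGTTTAC, the HNF1 motif GTTAAT and the unfolded protein response element TGACGTG were in 0 of the 6 regions and in 3.42%, 6.88% and 1.97% of all promoters. These matches describe letters in a window and say nothing of the factors.

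The deposited values, here called normalized counts, are described in the methods as counts divided by size factors, and how many reads 1 unit stands for could not be established. PANC-1 and HPAF-II tables were normalized apart, so the lines were compared without a test, after each library was set to a total of 1000000 (rescaled counts). QKI mRNA fell from 25533 ± 869 normalized counts in siCtrl to 5034 ± 412 in siQKI (SD, n = 3), 19.7% of its level, and RBFOX2 fell from 15429 ± 76.8 to 2095 ± 352 in siRBFOX2, 13.6% of its level. RBFOX2 was also lower in siQKI, at 12642 ± 129 or 81.9% of siCtrl (limma adjusted p = 0.0207, a call kept in 11 of 17 alternatives). QKI stood at 28016 ± 1149 in siRBFOX2 and was not called (limma adjusted p = 0.105). HPAF-II siCtrl held less QKI than PANC-1 siCtrl (14.5 ± 2.76 against 74.2 ± 3.27 rescaled counts). All 6 duct and epithelial markers (KRT7, KRT8, KRT18, KRT19, EPCAM and SOX9) averaged 10 or more normalized counts in every group. Their summed level was 2381 rescaled counts or more in every library. The minimum of 10 is low and does not by itself establish a ductal identity. Of 6 acinar enzymes, 2 also met it in PANC-1 siCtrl and 3 in HPAF-II. Of the same 6 enzymes, 4 were at 0 in every PANC-1 siCtrl library and 3 in every HPAF-II library, and their summed level was at most 1.59 rescaled counts in any library.

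In HPAF-II, 4 of the markers were abundant in every library, whereas in PANC-1 AGR2 alone was. HPAF-II held LYZ, AGR2, CEACAM6 and CEACAM1 at 8230 normalized counts or more and CEACAM5 at 1816 to 2747, while the trefoil factors, AGR3 and REG4 stayed low or at 0. AGR2 made up 99.4% to 99.7% of the summed rescaled counts of the 10 markers in each PANC-1 library, whereas its part was 27.2% to 31.3% in HPAF-II. Without AGR2 the sum was between 1.08 and 1.82 rescaled counts in every PANC-1 library and between 1352 and 1389 in every HPAF-II library. The number of markers above 0 was 5 to 7 of 10 in each PANC-1 library and 7 or 8 of 10 in each HPAF-II library.

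**Figure D1:**
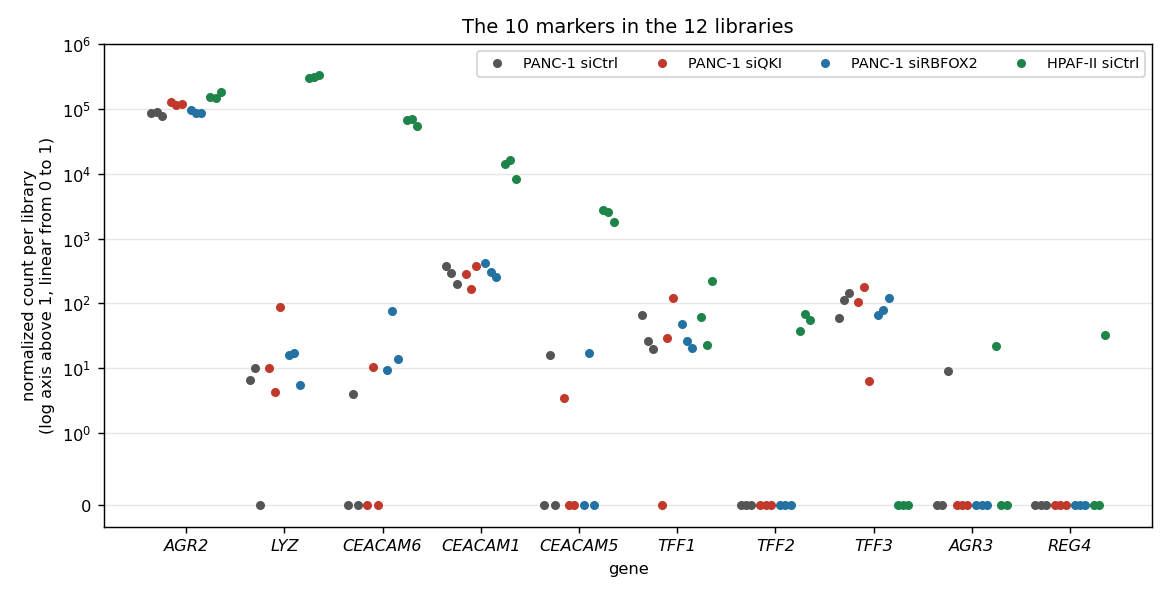
Normalized counts of the 10 markers (vertical axis, logarithmic above 1 and linear from 0 to 1) in the 12 libraries, coloured by group, 1 point per library. AGR2 is high in all libraries, LYZ, CEACAM6, CEACAM1 and CEACAM5 are far above the PANC-1 libraries in HPAF-II, and TFF2 and REG4 lie at 0 in all 9 PANC-1 libraries.

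Of the 10 markers, 9 averaged 10 or more normalized counts in a line. LYZ, CEACAM6, CEACAM5, TFF2 and REG4 reached this minimum through HPAF-II alone, so that their direction was largely set by it, and TFF3 reached it through PANC-1 alone. A ratio could be formed for 6 markers found above 0 in both lines. These 6 (LYZ, CEACAM6, CEACAM5, CEACAM1, AGR2 and TFF1) were at least 2-fold higher in HPAF-II, and all but TFF1 did not overlap between the lines. Of the 21985 genes compared, 26.0% were at least 2-fold higher in HPAF-II (46.6% in either direction) and 62.3% did not overlap, and nothing is read from the count of markers against these shares. TFF3, for which no ratio could be formed, went the other way, with 106 ± 42.2 normalized counts in PANC-1 siCtrl and 0 in every HPAF-II library. In these bulk samples, fewer cells that express a gene and less RNA per cell cannot be told apart.

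LYZ was the most abundant marker in HPAF-II. The 3 HPAF-II libraries held 294245, 306698 and 330746 normalized counts, and the PANC-1 siCtrl libraries held 6.70, 9.99 and 0. In rescaled counts these were 1094 ± 60.6 and 0.0162 ± 0.0147 (SD, n = 3 each). The groups were far apart, but the size of the ratio rests on values near 0 in PANC-1: the log2 ratio was 15.35 with a pseudocount of 0.01 and 10.07 with a pseudocount of 1. Of 10 myeloid markers, 5 (PTPRC, CD163, AIF1, TYROBP and S100A12) were at 0 in all 3 HPAF-II libraries, and the summed level of the list was 78.1 to 107 rescaled counts in HPAF-II and 146 to 171 in PANC-1 siCtrl. CD14, a monocyte receptor, held 1.72 ± 0.541 rescaled counts in HPAF-II and 1.24 ± 0.344 in PANC-1 siCtrl. CD68, a lysosomal protein, gave 93.7 ± 15.8 of that sum in HPAF-II and 158 ± 12.6 in PANC-1. These libraries came from cell lines rather than tissue, and a part of myeloid cells in the LYZ level was not tested.

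CEACAM6 held 67256, 68719 and 53736 normalized counts in HPAF-II, and 0, 4.0 and 0 in PANC-1 siCtrl. CEACAM5, the carcinoembryonic antigen measured in serum as a tumour marker, held 2747, 2570 and 1816 in HPAF-II, and 0, 16.0 and 0 in PANC-1 siCtrl. CEACAM1 was the only family member of the 3 present in every PANC-1 library: HPAF-II held 13916, 16303 and 8230 normalized counts and PANC-1 siCtrl 383, 290 and 198. None of the 3 overlapped between the lines. On the rescaled scale the log2 ratio was 13.98 for CEACAM6, 8.37 for CEACAM5 and 5.72 for CEACAM1, and with a pseudocount of 1 it was 7.80, 3.21 and 4.64, so the order of CEACAM5 and CEACAM1 depended on the pseudocount. CEACAM1 overlaps the antisense gene LIPE-AS1, and the strand of the libraries is not stated, and LIPE-AS1 held 83.3 normalized counts on average in HPAF-II and 13.1 in PANC-1 siCtrl. CEACAM genes are near-identical in parts, so reads may be split among them. Of 9 other CEACAM genes, CEACAM19 was above the minimum in both lines (0.760 and 1.94 rescaled counts), and CEACAM3, 24376 bases from CEACAM6, was at 0 in PANC-1 siCtrl and at 943 normalized counts in HPAF-II.

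AGR2 was high in both lines and higher in HPAF-II. The HPAF-II libraries held 543, 513 and 632 rescaled counts and the PANC-1 siCtrl libraries 259, 253 and 224, with no overlap. The log2 ratio was 1.20 (2.29-fold), and 0.92 without rescaling, which is below 2-fold. AGR3, whose gene lies 54299 bases from AGR2 on chromosome 7, was above 0 in 1 of 3 libraries of each line, at 22.2 normalized counts in HPAF-II and 9.05 in PANC-1 siCtrl.

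The trefoil factors were low in both lines, and each had a pattern of its own. TFF1 held 61.7, 22.9 and 225 normalized counts in HPAF-II and 66.1, 26.0 and 20.1 in PANC-1 siCtrl, and the lines overlapped. Its log2 ratio was 1.65, and 0.43 without HPAF-II replicate 3. TFF2 held 37.0, 68.7 and 55.1 in HPAF-II and was listed at 0 in all 9 PANC-1 libraries, whereas TFF3 was listed at 0 in all 3 HPAF-II libraries and held 60.3, 113 and 144 in PANC-1 siCtrl. The 3 genes lie next to each other on chromosome 21, 11288 bases apart (TFF1 and TFF2) and 30706 bases apart (TFF2 and TFF3). REG4, a secreted protein of the regenerating islet-derived family, was listed at 0 in all PANC-1 libraries and above 0 in 1 HPAF-II library, at 32.1 normalized counts. The 4 other REG genes examined (REG1A, REG1B, REG3A and REG3G) were at 0 in both siCtrl groups.

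Levels of different genes were compared per kilobase of exon (rescaled counts divided by the merged GENCODE v29 exon length). In HPAF-II, LYZ stood at 620 ± 34.3 per kilobase, AGR2 at 276 ± 30.4, CEACAM6 at 82.6 ± 10.9, CEACAM1 at 12.2 ± 3.90 and CEACAM5 at 2.88 ± 0.613, and the libraries of neighbours in this order did not overlap. TFF1 at 0.660 ± 0.684 and TFF2 at 0.256 ± 0.0728 per kilobase overlapped each other. In PANC-1 siCtrl, AGR2 stood at 120 ± 9.04 per kilobase, followed by TFF3 at 0.275 ± 0.108, CEACAM1 at 0.228 ± 0.0751 and TFF1 at 0.198 ± 0.135, and these 3 overlapped. LYZ, CEACAM5, CEACAM6 and AGR3 were at or below 0.0110 per kilobase in PANC-1 siCtrl.

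Genes beside the markers differed between the lines in both directions. Of 46 named genes within 200 kb of a marker, 28 could be compared, of which 6 were at least 2-fold higher in HPAF-II, 10 at least 2-fold lower and 12 in between, with a median log2 ratio of 0.03. YEATS4, a chromatin reader gene 5509 bases from LYZ, held 22997 normalized counts in PANC-1 siCtrl and 23593 in HPAF-II (66.8 ± 1.43 and 83.1 ± 22.2 rescaled counts). TSPAN13, a tetraspanin 7267 bases from AGR2, held 109 ± 14.1 rescaled counts in HPAF-II and 203 ± 11.5 in PANC-1 siCtrl. Near the trefoil factors, the sugar-phosphate transporter gene SLC37A1 and the axonemal gene RSPH1 were higher in HPAF-II, with log2 ratios of 3.90 and 7.04. These 4 genes were chosen after their values were seen.

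**Figure D2:**
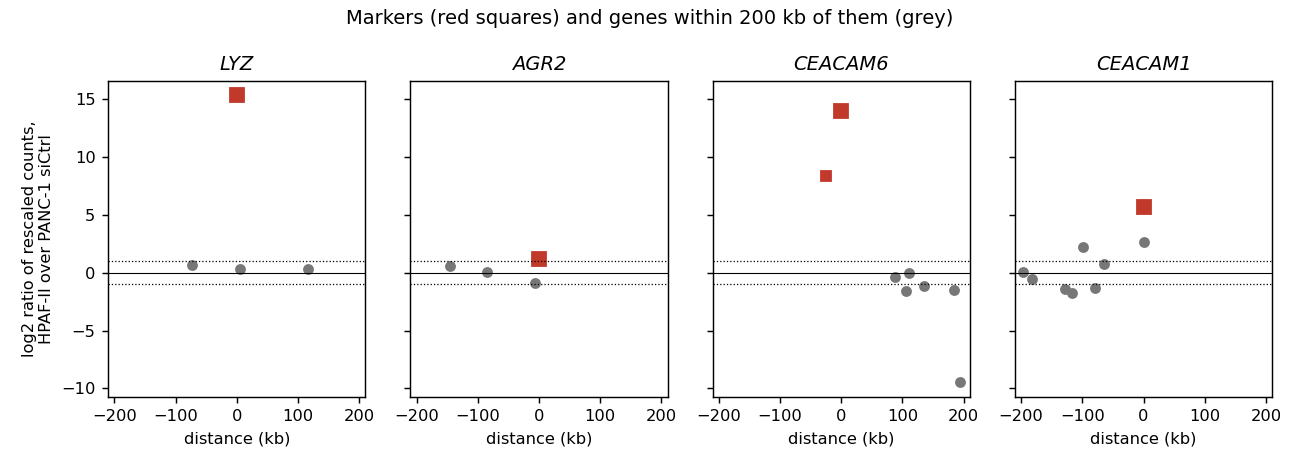
Log2 ratio of rescaled counts, HPAF-II over PANC-1 siCtrl (vertical axis), against distance in kb from LYZ, AGR2, CEACAM6 and CEACAM1 (1 panel each), for markers (red squares) and other named genes within 200 kb (grey points), with dotted lines at 2-fold. LYZ at 15.35 and CEACAM6 at 13.98 stand above every grey point of their panels, while the 3 genes beside LYZ stay within 2-fold.

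QKI silencing in PANC-1 raised AGR2 and left no other marker past the threshold. AGR2 held 126263, 116076 and 118996 normalized counts in siQKI, 97300, 87562 and 87444 in siRBFOX2 and 87774, 88044 and 77509 in siCtrl. Every siQKI library lay above every siCtrl and every siRBFOX2 library, while siRBFOX2 and siCtrl overlapped. Of all genes tested, 44.7% did not overlap between siQKI and siCtrl and 35.2% between siQKI and siRBFOX2. Both knockdowns were compared with the same 3 siCtrl libraries. Against siCtrl, AGR2 rose by a log2 fold change of 0.51 (SE 0.055, 95% interval 0.40 to 0.63; 1.43-fold; limma adjusted p = 4.04e-06) in siQKI. In siRBFOX2 its log2 fold change was 0.10 (95% interval -0.01 to 0.22, limma adjusted p = 0.193). Between the 2 knockdowns, siQKI stood above siRBFOX2 by 0.41 on the log2 scale (95% interval 0.29 to 0.53, limma adjusted p = 7.35e-05). Over all 17 alternatives the log2 fold change in siQKI stayed between 0.45 and 0.58, with adjusted p of at most 0.00329. Among the genes tested, AGR2 was at the 80.6th percentile of the siQKI log2 fold changes, with 1552 called genes above it. In rescaled counts the siQKI libraries reached 365 ± 12.7, below the HPAF-II libraries at 562 ± 61.9, with no overlap.

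Over the 9 PANC-1 libraries, 6 of the 10 markers averaged 10 or more normalized counts and were tested among 22544 genes. With limma, 1 of 6 was called in siQKI against siCtrl, where 33.0% of all genes were called (14.9% higher), 0 of 6 in siRBFOX2 against siCtrl, where 26.5% were called, and 1 of 6 in siQKI against siRBFOX2, where 21.5% were called (9.93% higher). In siRBFOX2, 1 of the 6 (CEACAM6) had an unadjusted limma p under 0.05, as had 35.8% of all genes. CEACAM6 averaged 1.33 normalized counts in siCtrl and 3.49 in siQKI and reached the minimum through siRBFOX2 (33.6), so its test carries the choice made by the filter, and LYZ reached it through the knockdown groups. After rescaling to the 75th percentile, calls in siQKI were 4225 higher and 3057 lower, against 3362 higher and 4070 lower with the size factors of the authors, and the AGR2 log2 fold change became 0.58.

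**Figure D3:**
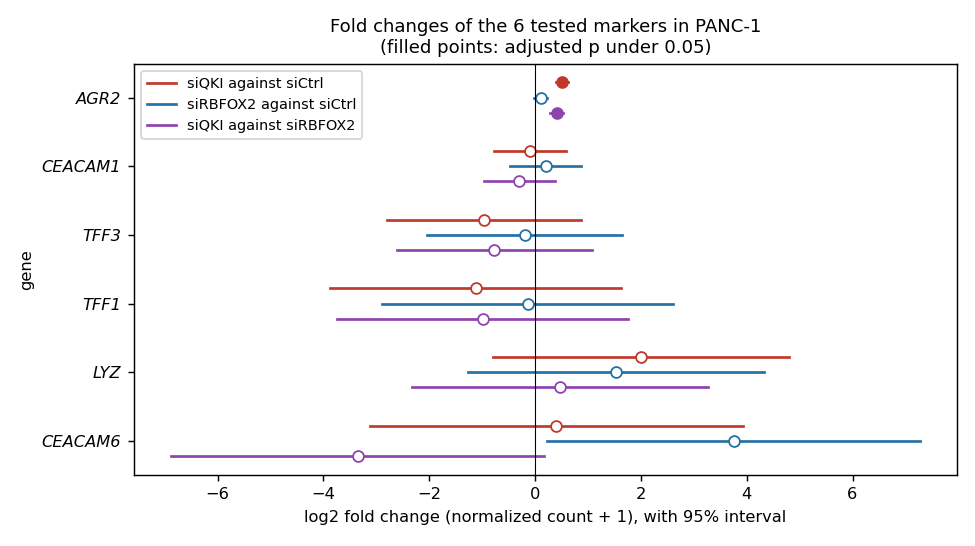
Log2 fold change of normalized count + 1 (horizontal axis) with its 95% interval for the 6 tested markers in the 3 comparisons of PANC-1 groups, filled points being past an adjusted p of 0.05. AGR2 has the narrowest intervals and is called in both comparisons with siQKI (0.51 and 0.41), and the intervals widen towards LYZ and CEACAM6, which have few counts.

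CEACAM6 was at the limit of detection in PANC-1. It held 9.46, 77.5 and 13.9 normalized counts in siRBFOX2, 0, 10.5 and 0 in siQKI and 0, 4.0 and 0 in siCtrl. The siRBFOX2 libraries lay above the siCtrl libraries without overlap, as 37.9% of all genes did in one direction or the other, and 1 library, siRBFOX2 replicate 2, was well above the rest. The log2 fold change was 3.75 (SE 1.65, limma adjusted p = 0.114), and among the alternatives it passed the threshold only without a filter on low values (adjusted p = 0.0458), where 17.8% of 31618 genes were called. The highest PANC-1 value was far below the 53736 of the lowest HPAF-II library.

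CEACAM1 held 282, 167 and 381 normalized counts in siQKI, 426, 302 and 258 in siRBFOX2 and 383, 290 and 198 in siCtrl, and all 3 groups overlapped. Its log2 fold change was -0.10 in siQKI (95% interval -0.77 to 0.58, limma adjusted p = 0.856) and 0.20 in siRBFOX2 (-0.48 to 0.87, adjusted p = 0.711). CEACAM5 was above 0 in 1 library of each PANC-1 group, at 16.0, 3.42 and 17.4, and was not tested.

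In TFF3, 1 library set the direction of the fold change. It held 104, 177 and 6.29 normalized counts in siQKI and 60.3, 113 and 144 in siCtrl, so the lowest and the highest PANC-1 values were both in siQKI. Its log2 fold change in siQKI was -0.97 (95% interval -2.80 to 0.87, limma adjusted p = 0.446) and 0.44 without siQKI replicate 3. In siRBFOX2 it held 67.3, 80.4 and 119, with a log2 fold change of -0.20 (adjusted p = 0.901). TFF1 ranged from 0 to 123 in siQKI, from 20.4 to 48.4 in siRBFOX2 and from 20.1 to 66.1 in siCtrl, and neither comparison was called (adjusted p = 0.564 and 0.957). In the same siQKI replicate 3 that held the least TFF3, TFF1 and LYZ had their highest PANC-1 values, 123 and 88.1. LYZ otherwise stayed at 4.36 to 17.4 in the knockdown libraries, and it was called in neither knockdown (adjusted p = 0.283 and 0.451).

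**Figure D4:**
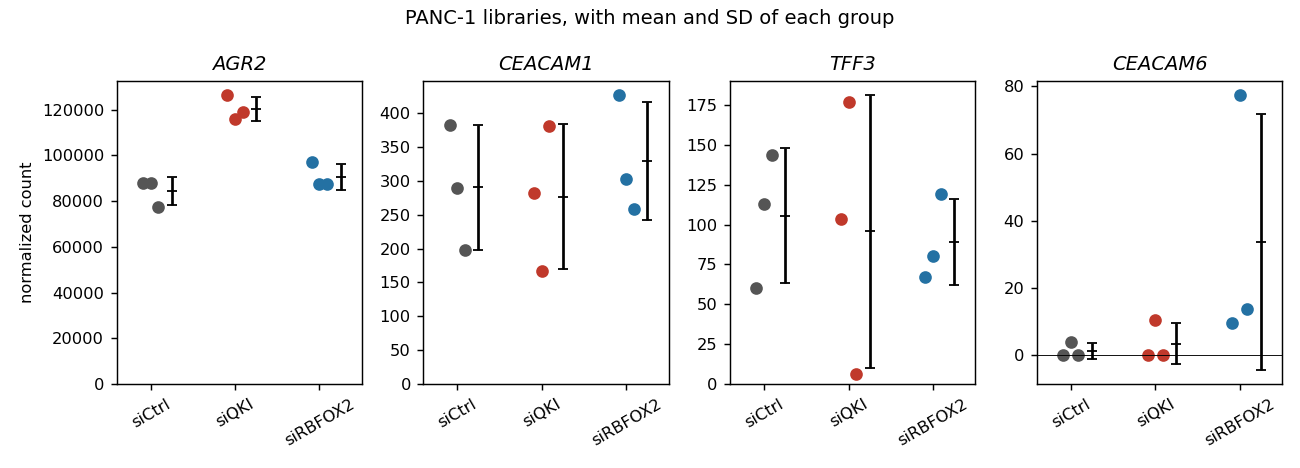
Normalized counts of AGR2, CEACAM1, TFF3 and CEACAM6 (vertical axes, linear) in the 3 libraries of each PANC-1 group, with the mean and SD in black beside the points. AGR2 in siQKI (116076 to 126263) lies above both other groups, the groups of CEACAM1 and TFF3 overlap, and CEACAM6 has 1 high siRBFOX2 library at 77.5.

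QKI and RBFOX proteins bind short RNA motifs, so the longest coding transcript of each marker in GENCODE v29 (GRCh38) was searched for the core QKI motif (ACTAAC or ACTAAT) and for the RBFOX motif TGCATG, a search added after the values were seen. The AGR2 transcript held 1 QKI motif in its 3′ UTR (exon 8 of 8, chr7:16792117-16792122, minus strand) and 0 RBFOX motifs. The CEACAM6 transcript held 2 of each. Its 2 QKI motifs and 1 of its RBFOX motifs (chr19:41771677-41771682, plus strand) lay in the 3′ UTR, and the other RBFOX motif lay in the coding part. The sites are shown with the motif in capitals, as DNA.
AGR2 QKI motif: agccaacatgtgACTAATtggaagaagagc
CEACAM6 RBFOX motif: gctttaaatgtcTGCATGcagccagccatc

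Such motifs are common. At least 1 QKI motif was found in 24.5% of 1635 coding transcripts within 10% of the length of that of AGR2, and at least 1 RBFOX motif in 48.9% of 2158 transcripts within 10% of the length of that of CEACAM6. LYZ held 3 QKI motifs and CEACAM5 held 2. At least 1 QKI motif was found in 22.4%, 40.9% and 36.8% of transcripts of like length for LYZ, CEACAM5 and CEACAM6. LYZ was not called and CEACAM5 was too low for a test. LYZ, AGR3 and REG4 held 1 RBFOX motif each, where 30.9%, 15.0% and 43.4% of transcripts of like length held at least 1. TFF1, TFF2 and CEACAM1 held 0 of both motifs in these transcripts. TFF3 held 2 RBFOX motifs, where 21.4% of transcripts of like length held at least 1. Only spliced transcripts were searched, so introns were left out, and a count of 0 does not cover them. A match is not a binding site, and binding was not measured in these data.

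Genes that work with the markers were followed as lists. AGR2 belongs to a family of which 18 other protein disulfide isomerases were listed and 16 tested: 8 were higher and 3 lower in siQKI (median log2 fold change 0.16, beside 0.03 over all genes, with 14.9% of all genes higher and 18.1% lower), and 7 were higher and 2 lower in siRBFOX2. Of all genes, 26.5% were called in siRBFOX2 in either direction. After rescaling to the 75th percentile, 10 were higher and 0 lower in siQKI, and the number lower was also 0 without siCtrl replicate 3 or siQKI replicate 3 and 1 without siQKI replicate 1. Without siCtrl replicate 2, 1 was lower in siRBFOX2. ERP44, which retains secretory proteins in the early secretory pathway, rose in both knockdowns, from 3602 ± 356 normalized counts in siCtrl to 9315 ± 604 in siQKI (log2 fold change 1.37, SE 0.072) and 8620 ± 373 in siRBFOX2 (1.26, SE 0.072). The pancreatic isomerase PDIA2 rose in siQKI (log2 fold change 1.47, SE 0.32) and TMX3 by 0.52 (SE 0.057). In siRBFOX2, TMX3 rose by 0.28, and PDIA2 by 0.90 with an adjusted p of 0.0484, which was up to 0.227 over 17 alternatives, of which 8 kept the call. The isomerase P4HB, the most abundant of the list in PANC-1, was not called in siQKI (log2 fold change 0.08, adjusted p = 0.128).

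Of 18 regulators of secretory and gastrointestinal identity, 15 were tested, and 4 were higher and 3 lower in siQKI, beside 14.9% and 18.1% of all genes. With a library left out, 3 to 5 were higher and 2 to 3 lower. The forkhead factor FOXA1 rose from 1039 ± 207 to 2121 ± 424 normalized counts (log2 fold change 1.03, SE 0.18), SPDEF, a factor for goblet cell maturation, from 492 ± 13.7 to 1024 ± 293 (1.02, SE 0.18), and CREB3L1, which activates secretory pathway genes, from 916 ± 111 to 1541 ± 122 (0.75, SE 0.12). The intestinal factor CDX2 was the other one higher (0.38, SE 0.13). The 3 that fell in siQKI were KLF4, an epithelial differentiation factor (log2 fold change -0.46, SE 0.075), the forkhead factor FOXA2 (-0.19, SE 0.039) and the zinc-finger factor GATA4 (-0.28, SE 0.10, adjusted p = 0.0416). In siRBFOX2, 2 were higher and 3 lower (26.5% of all genes were called): FOXA1 (log2 fold change 1.05) and CREB3L1 (0.59) rose, and KLF4 (-0.80), the nuclear receptor gene HNF4G (-0.79) and FOXA2 (-0.37) fell. The adjusted p of HNF4G was 0.0375 and up to 0.150 over 17 alternatives, of which 10 kept the call. In siQKI against siRBFOX2, 4 of the 15 were higher and 1 lower, beside 9.93% and 11.6% of all genes. The higher ones were SPDEF (log2 fold change 1.28, limma adjusted p = 9.70e-05), HNF4G (1.11), KLF4 (0.34) and FOXA2 (0.17), and GATA4 was lower (-0.33). A link between any of them and AGR2 was not tested. XBP1, a factor of the unfolded protein response, was not called in either knockdown (log2 fold changes 0.04 and 0.09). In HPAF-II, 10 of 15 regulators compared were at least 2-fold higher and 1 was lower, beside 26.0% and 20.6% of all genes. A regulator could reach the minimum through 1 line alone, as ERN2 did (7.51 normalized counts in PANC-1 siCtrl and 9419 in HPAF-II). Those higher included GATA6 (50.1 ± 12.6 against 1.46 ± 0.128 rescaled counts) and FOXA1 (27.5 ± 6.32 against 3.02 ± 0.631).

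Genes whose products bind the markers formed a further list. Of 11 listed, 10 were tested, with 3 higher and 2 lower in siQKI (14.9% and 18.1% of all genes) and 2 higher and 2 lower in siRBFOX2 (26.5% of all genes called). The siRBFOX2 counts rested on single libraries: 0 were higher and 1 lower without siRBFOX2 replicate 1, 1 was higher and 0 lower without siCtrl replicate 3, and 1 was higher without siCtrl replicate 2 or siRBFOX2 replicate 2. FCGBP, a mucus protein that forms a disulfide-linked complex with TFF3, rose in siQKI from 1400 ± 229 to 2782 ± 125 normalized counts (log2 fold change 1.0, SE 0.17). LYPD3, a surface protein described as a receptor for AGR2, had a log2 fold change of 0.78 (adjusted p = 0.0204) that lost its call without siCtrl replicate 1, siQKI replicate 1 or siQKI replicate 2 (adjusted p up to 0.0963). PTPN11, a phosphatase that binds CEACAM1, fell by 0.53 in siQKI (SE 0.048).

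Of 16 other classical markers, 6 were tested in PANC-1. None was called in siQKI with limma (0 of 6), and TSPAN8, a tetraspanin, was called in siRBFOX2 (log2 fold change 1.47, adjusted p = 0.0216, and up to 0.111 over the alternatives). Between the lines 10 of 11 compared were at least 2-fold higher in HPAF-II, where 26.0% of all genes were higher and 20.6% lower. A gene could reach the minimum through 1 line alone, as ANXA10 did (7.04 normalized counts in PANC-1 siCtrl and 67866 in HPAF-II). CDH17, an intestinal cadherin, was above the minimum in both lines and higher in HPAF-II (111 ± 24.1 against 3.38 ± 0.29 rescaled counts). Of 25 basal-like markers, 15 were tested, of which 6 were lower and 0 higher in siQKI (18.1% and 14.9% of all genes), and 2 higher and 3 lower in siRBFOX2 (26.5% of all genes called). The 2 higher in siRBFOX2 (CTSV, adjusted p = 0.0418, and FGFBP1, adjusted p = 0.0478) became 0 or 1 in every fit that left out a library, and the replicate block gave 1 higher and 4 lower. The EGF receptor ligand AREG fell by 1.55 on the log2 scale in siQKI (SE 0.19) and by 1.09 in siRBFOX2 (SE 0.19), and DHRS9, a retinol dehydrogenase, fell by 1.47 in siQKI (SE 0.28). TNS4, a focal adhesion protein, fell by 1.67 in siQKI (SE 0.48, adjusted p = 0.014), and its call was lost without siQKI replicate 3 (log2 fold change -1.17, adjusted p = 0.0694). Between the lines, 15 of 19 basal-like markers compared were at least 2-fold higher in HPAF-II and 2 lower, beside the same 26.0% and 20.6% of all genes. Some reached the minimum through 1 line alone, as SCEL did (6.04 normalized counts in PANC-1 siCtrl and 22201 in HPAF-II), so that their direction was largely set by it. KRT7 held 866 ± 257 against 4.16 ± 0.277 rescaled counts.

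**Figure D5:**
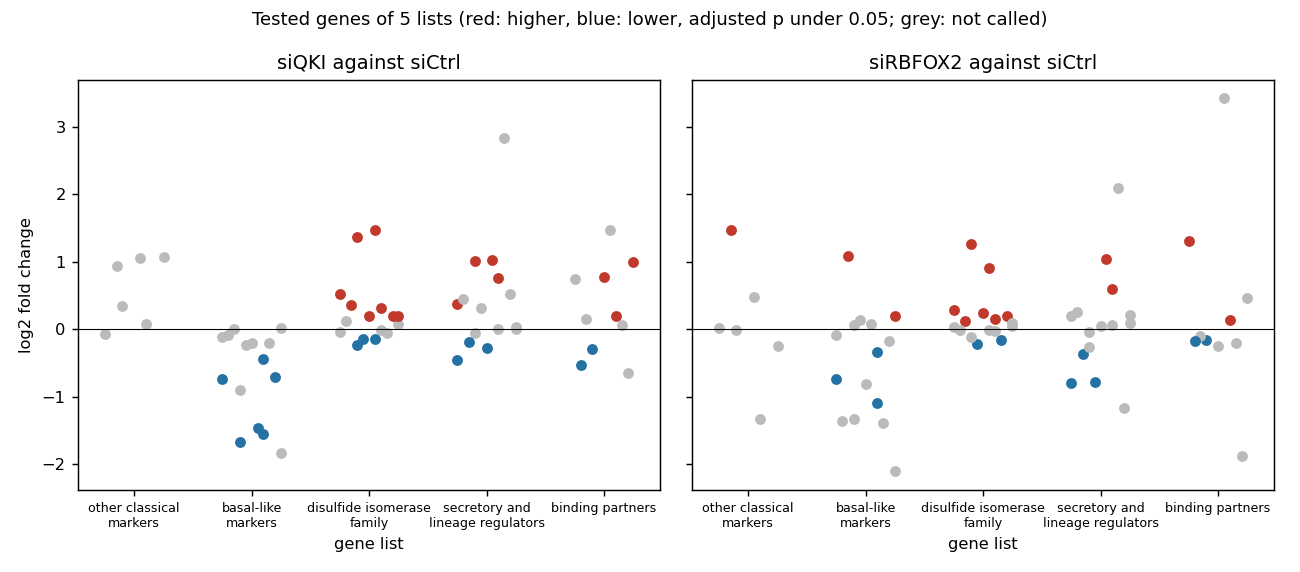
Log2 fold changes (vertical axis) of the tested genes of 5 lists in siQKI (left) and siRBFOX2 (right) against siCtrl, 1 point per gene, in red where higher and blue where lower at an adjusted p under 0.05 and grey otherwise. In siQKI the basal-like list has 6 blue and 0 red points, and the other classical markers have 0 called points. The disulfide isomerase list has 8 red and 3 blue points in siQKI (10 and 0 after rescaling to the 75th percentile). In siRBFOX2 the other classical markers have 1 red point, TSPAN8.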

How the data were processed

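Libraries were prepared with the Universal Plus mRNA-Seq kit and sequenced as read pairs. Per the labels and methods, the authors aligned reads to hg38 with STAR 2.7.5a, counted genes of the FAST DB annotation and divided them by DESeq2 size factors, estimated apart for the 9 PANC-1 and the 3 HPAF-II libraries. The deposited signal values are these normalized counts. In each library all values below 1000 steps were whole multiples of 1 step within 0.01, but 82.1% to 84.8% of values of up to 30 steps were multiples of 3. The depth in fragments is therefore unknown. Totals were 226697015 to 376192091 steps per library. Precision was taken from the replicates.

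For PANC-1, limma 3.58.1 (R 4.3.3) was run on log2(normalized count + 1), in 1 fit with a mean-variance trend over 22544 genes with a mean of at least 10, with Benjamini-Hochberg adjustment at 0.05. The procedure was tested on simulated data. It recovered 2-fold changes of abundant genes and missed many of genes with few counts, the criterion being moved to abundant genes after a first one at lower counts was not met, so a missing call of a low marker does not show that it was unchanged. Lines were described by rescaled counts with a pseudocount of 0.01. Tables were made in Python 3.11.15 with pandas 2.3.3, and promoters aligned with Biopython 1.88. The members and lists were chosen with earlier results of these data known. Named list genes are up to 3 per list and comparison, called, with a mean of at least 50 and the largest change, or, between lines, at least 1 rescaled count in both. Others named were chosen after their values were seen. Alternatives were pseudocounts, filters, rescaling, the groups fitted, a replicate block, no trend and each library left out.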

Additional observations from a re-analysis of the deposited data

How the results depend on the processing

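The call of AGR2 in siQKI, against siCtrl and against siRBFOX2, held under every alternative run, as did the absence of a marker call in siRBFOX2 with 1 exception: without a filter on low values 1 marker (CEACAM6) was called. Of 297 recomputed fold changes of the markers, 15 changed sign, all when a library was left out and none for AGR2. Leaving out libraries gave log2 fold changes in siQKI against siCtrl of -2.63 to 0.85 for TFF1, -1.86 to 0.44 for TFF3, -0.37 to 0.22 for CEACAM1 and -0.77 to 1.17 for CEACAM6. In siRBFOX2 against siCtrl they ran from -0.48 to 0.36 for TFF1, -0.55 to 0.066 for TFF3 and -0.051 to 0.42 for CEACAM1. In siQKI against siRBFOX2 they ran from -2.49 to 0.99 for TFF1, -1.66 to 0.64 for TFF3, -0.70 to 1.32 for LYZ and -0.56 to 0.026 for CEACAM1. These values differ from the full fit only by the library left out.

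Libraries with the same replicate number did not deviate together over the genes tested (r of -0.03 to 0.02). An r over all genes cannot exclude that the numbers pair the libraries in some genes. The SE of AGR2 in siQKI against siCtrl was 0.044 with the replicate block and 0.055 without it. With the replicate block, 7336 genes were called in siQKI, 5891 in siRBFOX2 and 4758 between the knockdowns, and 1, 0 and 1 markers, with a log2 fold change of 0.51 for AGR2 in siQKI (adjusted p = 1.93e-06). Between the lines, 5 of 6 markers were at least 2-fold apart without HPAF-II replicate 3 or with a pseudocount of 1 (TFF1 below) and without rescaling (AGR2 below, log2 ratio 0.92). Low values limit CEACAM5, CEACAM6 and LYZ in PANC-1, and TFF1, TFF2, AGR3 and REG4 in both lines.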

Other observations

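Across the 9 PANC-1 libraries, the genes whose log2 values followed AGR2 most closely were LGMN, a lysosomal cysteine protease (r = 0.991), CCDC74B (r = 0.990) and TAPT1 (r = 0.988), among 14365 named genes with a mean of at least 100. The 9 libraries form 3 groups, AGR2 differed between them, and r includes that difference: 426 genes had r above 0.9. LGMN held 13441 normalized counts in siQKI, 11159 in siCtrl and 11452 in siRBFOX2, and CCDC74B held 1811, 929 and 1069. For CEACAM1 the closest gene was LRRC37A (r = 0.916), and 1 gene had r above 0.9.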
